A study of Homo sapiens with 33 samples.

Results

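The claudin and keratin genes are the protein-coding genes of the count table whose symbol is CLDN or KRT followed by a number (for keratins, with an optional letter A to C). The rule used the symbol alone and found 79 genes among 19951 protein-coding genes and 58735 genes in all. Of these, 24 were claudins and 55 were keratins, namely 28 type I keratins, 26 type II keratins and KRT222, a keratin-like gene. Their levels were followed over a gonadal differentiation of human cells, with and without induction of FOXL2.

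Bulk RNA-seq was available for 33 libraries in 11 groups of 3. All libraries came from H9-DDdCas9VP192-FOXL2 clone 24 cells, that is, 1 clone of the human embryonic stem cell (hESC) line H9 carrying a destabilized, doxycycline-dependent CRISPR activator (DDdCas9VP192) with guides for FOXL2. The cells were seeded as single cells on human collagen and differentiated for 14 days in intermediate mesoderm (IM) medium to which small molecules, inhibitors and growth factors were added. The day 4 group was taken before induction. From day 4, the IND cells also received doxycycline (DOX) and trimethoprim (TMP) to switch the activator on, and the CTRL cells did not. Both were collected every 2 days from day 6 to day 14. The activator and guides were thus present in every group, and no group received DOX and TMP without the activation, so the effects of FOXL2 and of the compounds cannot be told apart. The 3 libraries of a group were technical replicates (wells of one experiment), so p-values cover the spread between wells only. The comparison of CTRL with day 4 is called DIFF below, and that of IND with CTRL of the same day is called IND.

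Claudins are membrane proteins that span the membrane several times and polymerize into the strands of tight junctions, where some members seal the space between neighbouring epithelial cells and others form pores for ions and water. Keratins are the intermediate filament proteins of epithelial cells. A filament needs a type I (acidic) and a type II (basic or neutral) partner, and KRT8 with KRT18 is the pair found in simple epithelia and in early embryonic epithelia, often together with KRT19 or KRT7. The coelomic epithelium, from which gonadal somatic cells arise, is such a simple epithelium, and epithelial cells that turn mesenchymal reduce many of these genes.

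Libraries held between 23940837 and 51912815 counts, with a median of 41420455. FOXL2, the targeted gene, lay between 147.6 and 577.3 CPM (counts scaled to the library total) in the IND libraries and at 0.388 CPM or less in all CTRL and day 4 libraries. Day 10 IND replicate 2 stood apart, with the lowest total, 19254 genes detected, 0.691% of its counts on mitochondrial genes against 1.14% to 4.28% elsewhere, and a median absolute log2 deviation of 0.552 from the other replicates of its group, against at most 0.317 for libraries of other groups. Results of the day 10 IND comparison are therefore also given without it. The hESC label describes the starting cells. Of 6 pluripotency markers, POU5F1 was at 24.8 ± 1.17 CPM per kb (SD, n = 3) at day 4 and 0.873 ± 0.276 in day 6 CTRL, and NANOG was at most 0.0588 in every library. SOX2, which neural cells also express, was at 18.5 ± 1.74 at day 4 and 23.6 ± 4.83 in day 14 CTRL, and DPPA4 at 24.8 ± 5.09 and 10.2 ± 1.70. PRDM14 and TDGF1 had group means of at most 0.434. GATA4, a coelomic epithelial marker, went from 12.4 ± 1.28 at day 4 to 102 ± 10.2 in day 10 CTRL and 46.9 ± 9.30 in day 10 IND (40.6 and 42.5 in the libraries other than replicate 2).

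All levels below are CPM per kilobase of gene length (CPM per kb), with library sizes scaled by the TMM method over the 33 libraries. The length is that of all annotated exons of a gene together, not that of the transcripts made. Orders of genes, shares of a pool and ratios of sums therefore depend on it. In day 4 replicate 1, KRT8 had 84579 counts over 6881 bases and KRT19 had 31096 counts over 2336 bases. Fold changes are on a log2 scale and are given ± SE, from the quasi-likelihood test of edgeR. The p-values were adjusted by Benjamini-Hochberg over all genes tested, and a gene was called at an adjusted p under 0.05. In bulk RNA, fewer cells of a type and less RNA per cell cannot be told apart.

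Most keratin genes were at or near 0 counts in these cells. Of the 79 members, 8 had no count in any library (CLDN22, CLDN25, KRT6C, KRT71, KRT73, KRT2, KRT26 and KRT33A), 23 never exceeded 3 counts, and 17 exceeded 3 counts in all 33 libraries, of which 12 were claudins and 5 keratins. A group mean of at least 1 CPM per kb was reached by 12 claudins and 6 keratins, and one of at least 10 by 3 claudins and 4 keratins. The filter on low counts kept 30 members in at least 1 comparison, 16 claudins and 14 keratins, and the counts of called members below are over those that passed it, not over all members. Some members passed it only through the group where they were high, which fixed the direction of their difference. By position, 27 type I keratins and KRT222 form one cluster on chromosome 17, from 40654665 to 41624842, and the 26 type II keratins with KRT18 form another on chromosome 12, from 52168996 to 52952901 (GRCh38). Claudins lay on 13 chromosomes.

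KRT8, KRT18 and KRT19, the keratins of simple epithelia, made up nearly the whole keratin pool in every group. Together they held between 96.7 ± 0.289% (day 14 IND) and 99.0 ± 0.0764% (day 6 CTRL) of the summed keratin level (SD, n = 3). At day 4 the means were 496 ± 71.5 for KRT19, 427 ± 18.8 for KRT8 and 291 ± 26.6 for KRT18. The highest claudin at day 4 was CLDN6, at 65.6 ± 4.77. KRT8 and KRT18 are neighbours on opposite strands and share 525 exon bases, which is 16.3% of the exon length of KRT18 and 7.60% of that of KRT8, and the libraries did not keep the strand. Annotated pseudogenes of KRT8 and KRT18 held at most 0.593% and 0.391% of the counts on the gene and its pseudogenes together.

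During differentiation without induction (DIFF), the keratin pool shrank and its make-up shifted away from KRT19. The summed keratin level was 1230 ± 105 at day 4, 1142 ± 60.9 in day 6 CTRL and 680.6 ± 143 in day 14 CTRL. KRT19 fell the most of the 3 abundant keratins, to 181 ± 40.9 in day 14 CTRL (log2 fold change -1.45 ± 0.18 (SE), adjusted p = 0.000178), and its share of the pool went from 40.2 ± 2.47% to 26.5 ± 0.814%. KRT18 fell to 200 ± 38.3 (-0.54 ± 0.16, adjusted p = 0.0178) and KRT8 to 284.5 ± 62.8 (-0.58 ± 0.17, adjusted p = 0.0189). The ratio of summed type II to summed type I level moved from 0.552 ± 0.0591 to 0.723 ± 0.0311, without overlap between the libraries of day 4 (0.484 to 0.592) and day 14 CTRL (0.688 to 0.746). The calls of KRT8 and KRT18 at day 14 were lost without CTRL replicate 1 or 2 or day 4 replicate 1, with adjusted p between 0.0617 and 0.0945, and the call of KRT19 was kept without any one library. The summed level of 8 neural markers was 4.20 to 22.6 at day 4, with 3 of 8 over 3 counts in every library, and 121 to 207 in day 14 CTRL, with all 8. That of 7 surface ectoderm and trophoblast markers was 152.6 to 224.1 at day 4 (5 of 7 over 3 counts) and 33.1 to 53.5 in day 14 CTRL (4 of 7). That of 8 coelomic epithelium and mesothelium markers went the other way, from 44.7 to 51.0 at day 4 to 206.2 to 298.4 in day 14 CTRL. The part of any of these cells in the keratin differences was not tested.

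KRT7, a type II keratin of ductal and other simple epithelia, fell the earliest and the furthest. Its level was 6.96, 7.41 and 9.81 in the 3 day 4 libraries and 2.08, 1.64 and 1.60 in day 6 CTRL. By day 14 CTRL it was 0.529, 0.300 and 0.774. The groups did not overlap at any day, with log2 fold changes of -2.19 ± 0.18 at day 6 (adjusted p = 1.35e-05) and -3.92 ± 0.30 at day 14 (adjusted p = 1.07e-05), and all 5 calls were kept under every alternative tried.

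KRT24, a type I keratin, moved the other way. It had 0 counts in each of the 3 day 4 libraries, 2 to 21 counts in day 6 CTRL, and 3.25, 2.83 and 3.61 CPM per kb in day 10 CTRL. All day 10 CTRL libraries were above all day 4 libraries, at least 60.5-fold higher on average, counted against a floor of 3 counts per day 4 library (0.0533 CPM per kb). At days 12 and 14 it was at least 46.4-fold and 29.1-fold above that floor, and the calls from day 8 to day 14 were kept under every alternative (adjusted p = 1.18e-05 at day 10). Since KRT24 is a member that went from no count to a clear level, its promoter is shown here. The bases are the 250 before the start of the RefSeq gene, chr17:40703753-40704002 of GRCh38.p14 on the minus strand, 5′ to 3′, with the TATA box letters TATAAA in capitals.
KRT24: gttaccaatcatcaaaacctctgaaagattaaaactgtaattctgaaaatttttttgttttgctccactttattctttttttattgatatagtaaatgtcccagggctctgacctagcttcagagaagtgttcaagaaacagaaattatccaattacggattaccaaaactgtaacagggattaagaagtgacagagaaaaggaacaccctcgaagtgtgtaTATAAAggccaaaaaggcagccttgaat

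TATAAA, searched on both strands of the 300-base RefSeq windows (250 bases before and 50 after the start), was present in 20 of 34 keratin windows (58.8%), in 1 of 19 claudin windows (5.26%) and in 12.0% of all 27305 windows. Windows were found for 53 of the 79 members. Between 40 and 20 bases before the start, the position of a classical TATA box, it was present in 3 of the 6 windows of keratins tested (KRT10, KRT24 and KRT3), in 12 of the 28 windows of keratins never tested, in 0 of 19 claudin windows and in 2.56% of all windows. CAGGTG, the E-box letters bound by SNAI and ZEB proteins, was in 23.5% of keratin, 21.1% of claudin and 20.6% of all windows. The GRHL letters AACCGGTT were in no member's window and in 0.11% of all windows, and the forkhead core letters TGTTTAC were in 1 claudin window, that of CLDN18, in no keratin window and in 3.44% of all windows.

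The other keratins that rose in DIFF were KRT10, KRT222 and KRT17. KRT10, best known from differentiating epidermis, rose from 7.42 ± 1.69 at day 4 to 14.2 ± 0.949 in day 12 CTRL (log2 fold change 0.94 ± 0.18, adjusted p = 0.00258). KRT222 rose from 0.0916 ± 0.0327 to 0.603 ± 0.0443 in day 10 CTRL (2.73 ± 0.36, adjusted p = 0.000373), and 34.5% of its exon length is shared with another annotated gene on the same strand. KRT17, a keratin of stressed and basal epithelia, had 0 counts in all day 4 libraries and was at least 14.7-fold higher in day 14 CTRL against the floor, where CTRL replicate 3 (1.03) was far above replicates 1 (0.188) and 2 (0.202). KRT17 was called at days 12 and 14, and its day 14 call was lost with limma on log2(FPKM + 1) (adjusted p = 0.0629). KRT16 and KRT80 were not called on the days they were tested in DIFF, and KRT4 and KRT79 were too low to be tested there.

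Counted over both families, DIFF comprised losses and gains. In day 14 CTRL against day 4, 19 of 24 members tested were called, 8 higher and 11 lower, beside 47.6% of all genes tested (24.6% higher and 22.9% lower). Earlier, the called members were 6 of 19 at day 6 (21.6% of all genes), 16 of 23 at day 8 (37.1%), 17 of 24 at day 10 (45.1%) and 18 of 25 at day 12 (48.1%). Libraries that did not overlap between CTRL and day 4 were found in 8 of 19 members at day 6 (39.4% of all genes), 16 of 23 at day 8 (51.5%), 19 of 24 at day 10 (57.6%), 18 of 25 at day 12 (59.4%) and 22 of 24 at day 14 (58.6%). The 5 DIFF comparisons share the day 4 libraries. Among those called higher, KRT24 and KRT17 had 0 counts in every day 4 library. They passed the filter on low counts only through CTRL, which fixed their direction. The same held for CLDN1 (5, 8 and 4 counts at day 4), CLDN5 (3, 0 and 14) and KRT222 (11, 8 and 6). Among those called lower at day 14, CLDN2 (12, 11 and 4 counts in CTRL) passed only through day 4. At day 14, 7 claudins fell, namely CLDN6, CLDN12, CLDN7, CLDN19, CLDN23, CLDN2 and CLDN10, and 4 rose, namely CLDN1, CLDN15, CLDN18 and CLDN5 (CLDN5 falls outside the naming rule and was added after its values were seen). The day 14 call of CLDN7 was lost without CTRL replicate 2 or 3 or day 4 replicate 1 or 2 (adjusted p 0.0525 to 0.0751).

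CLDN6, a claudin of embryonic epithelia and pluripotent cells, was the most abundant member of the family and fell from 65.6 ± 4.77 at day 4 to 28.8 ± 4.39 in day 14 CTRL (log2 fold change -1.18 ± 0.13, adjusted p = 8.26e-05). It was called at all 5 days. The call was lost at day 6 without CTRL replicate 1 or 3 (adjusted p 0.0548 and 0.0511), at day 8 without CTRL replicate 1 or 3 or day 4 replicate 1 or 3 (0.0510 to 0.0849) and at day 12 without day 4 replicate 1 or 3 (0.0528 and 0.0926). In 1 fit over all 33 libraries, the calls from day 6 to day 12 were lost (0.122 to 0.26) and that of day 14 was kept. CLDN2, a cation and water pore, fell the furthest, from 1.01 ± 0.116 to 0.0850 ± 0.0337 (-3.53 ± 0.38, adjusted p = 6.60e-05), and was not called at day 6. CLDN19 fell from 4.18 ± 1.12 to 1.15 ± 0.0990 (-1.87 ± 0.23, adjusted p = 0.000180). CLDN12, a claudin without the usual PDZ-binding end, had the smallest fold change of the claudins called at day 14, from 9.68 ± 1.08 to 6.53 ± 0.463 (-0.56 ± 0.12, adjusted p = 0.00376).

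CLDN1, the sealing claudin of the epidermis and many other epithelia, rose from 0.0535 ± 0.0205 at day 4 to 1.72 ± 0.265 in day 12 CTRL (log2 fold change 4.99 ± 0.33, adjusted p = 1.10e-05), and was called at all 5 days under every alternative. It passed the filter on low counts only through CTRL, which fixed its direction, and was also called without that filter. CLDN15, a cation pore, rose from 2.85 ± 0.412 to 6.40 ± 1.65 in day 14 CTRL (1.17 ± 0.22, adjusted p = 0.00191). CLDN18, known from lung and stomach epithelium, rose from 0.269 ± 0.114 to 1.10 ± 0.538 (2.03 ± 0.48, adjusted p = 0.00690). CLDN5, the claudin of endothelial tight junctions, rose from 0.0546 ± 0.0689 to 0.773 ± 0.197 (3.77 ± 0.74, adjusted p = 0.00244). It too passed the filter on low counts only through CTRL. The summed level of 8 endothelial markers lay between 8.57 and 14.3 in the CTRL libraries of days 6 and 8 and between 4.47 and 7.54 in day 14 CTRL, with all 8 over 3 counts, and between 2.38 and 2.99 at day 4, with 4 of 8 over 3 counts in every library, and its part in the CLDN5 level was not tested.

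CLDN11 had a different course, a dip and a return. Its level was 1.51, 1.63 and 1.46 at day 4, 0.729, 0.713 and 0.541 in day 6 CTRL and 0.547, 0.593 and 0.731 in day 8 CTRL. It returned to 1.94, 1.69 and 1.89 in day 14 CTRL, where all libraries were above day 4. The fall was called at days 6, 8 and 10 (log2 fold changes -1.22 ± 0.23, -1.29 ± 0.21 and -0.86 ± 0.19, adjusted p = 0.00366, 0.00150 and 0.00511) under every alternative, and the later values of 0.12 ± 0.25 and 0.27 ± 0.19 were not called.

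Under induction, CLDN11 had the lowest adjusted p of all members tested in the 5 IND comparisons. It is the claudin of myelin and of the Sertoli cell junctions of the testis. In IND it was 1.32, 1.44 and 1.67 at day 6, a range that overlapped day 4, while CTRL was at most 0.729. It was 2.62, 3.53 and 3.27 in day 8 IND, 2.35, 4.16 and 2.41 in day 10 IND and 2.62, 2.88 and 2.68 in day 12 IND. The IND libraries were above the CTRL libraries in 9 of 9 pairs on each of the 5 days, and at day 14 IND was 2.09, 2.58 and 2.27.

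The log2 fold changes of CLDN11 (IND) were 1.18 ± 0.22 at day 6 (adjusted p = 0.00454), 2.35 ± 0.18 at day 8 (adjusted p = 1.59e-05) and 1.84 ± 0.29 at day 10 (adjusted p = 0.0324). They were 0.71 ± 0.24 at day 12 and 0.33 ± 0.16 at day 14, neither of which was called. The interaction of day and induction, tested over the 30 libraries after day 4, called CLDN11 alone among 33 members tested (adjusted p = 0.00108), beside 2.38% of all genes tested. Of the 33, 11 had an unadjusted p under 0.05. The share of all genes under that unadjusted threshold is not given, so this count does not set the members apart. The calls of CLDN11 at days 6 and 8 were kept under every alternative. Without day 10 IND replicate 2 the day 10 value was 1.52 (adjusted p = 1.76e-05), whereas the call was lost without either other IND library or any one CTRL library of that day (adjusted p 0.0768 to 0.227). Of the exon length of CLDN11, 18.3% is shared with another annotated protein-coding gene on the same strand. The 250 bases before its RefSeq start are shown because this member was called in the interaction. They lie at chr3:170418618-170418867 of GRCh38.p14 on the plus strand, and none of the 4 motifs searched was found in them, hence no capitals.
CLDN11: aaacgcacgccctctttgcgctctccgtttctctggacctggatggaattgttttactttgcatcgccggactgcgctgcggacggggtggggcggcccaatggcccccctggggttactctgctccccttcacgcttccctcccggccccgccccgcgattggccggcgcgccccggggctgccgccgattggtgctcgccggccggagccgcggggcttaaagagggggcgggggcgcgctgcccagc

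Counted over the members tested, the IND calls were few and mostly upward until day 12. Of the calls below from the fits of 6 libraries, 2 belong to genes that passed the filter on low counts only through IND, which fixed their direction. They are KRT4 at day 8 (97, 70 and 38 counts in IND against 8, 17 and 0 in CTRL) and KRT79 at day 12 (12, 22 and 12 against 4, 4 and 1). At day 6, 3 of 22 members tested were called, all higher (KRT7, CLDN11 and CLDN10), beside 3.66% of all genes (1.29% higher and 2.37% lower). At day 8, 8 of 24 were called, 7 higher (CLDN7, KRT7, CLDN19, CLDN23, CLDN11, CLDN10 and KRT4) and 1 lower (CLDN15), beside 14.2% of all genes (7.49% higher and 6.67% lower). At day 10, 1 of 27 was called (CLDN11), beside 2.03% (0.856% higher and 1.18% lower), and 10 of those tested were called when replicate 2 of day 10 IND was left out, 7 higher and 3 lower, beside 18.2% of all genes in that fit (8.74% higher and 9.51% lower). Among the 3 lower in that fit, KRT14 (2 and 3 counts in IND against 9, 19 and 16 in CTRL) passed the filter only through CTRL, which fixed its direction. At day 12, 5 of 28 were called, all higher (CLDN3, CLDN4, CLDN23, CLDN2 and KRT79), beside 5.42% of all genes (2.38% higher and 3.04% lower). At day 14, 2 of 24 were called, both lower (KRT19 and KRT18), beside 8.43% (3.21% higher and 5.22% lower).

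The median log2 fold change of the members tested was 0.38, 0.705, 0.47, 0.70 and -0.39 from day 6 to day 14, and that of all genes tested lay between -0.0121 and 0.0195. At day 10 the median of the members was 0.379 without IND replicate 2. Libraries that did not overlap between IND and CTRL were found in 6 of 22 members at day 6 (19.1% of all genes tested), 14 of 24 at day 8 (33.1%), 15 of 27 at day 10 (30.9%), 12 of 28 at day 12 (30.3%) and 7 of 24 at day 14 (26.7%). Of the 19 calls, 5 were kept under all 13 alternatives (CLDN11 at days 6 and 8, and KRT7, CLDN19 and CLDN23 at day 8), and the direction of all 19 was. The other 14 calls were each lost when one or more single libraries were left out, and 12 of them (all but CLDN7 at day 8 and CLDN23 at day 12) were also lost under another setting of the test.

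**Figure D1:**
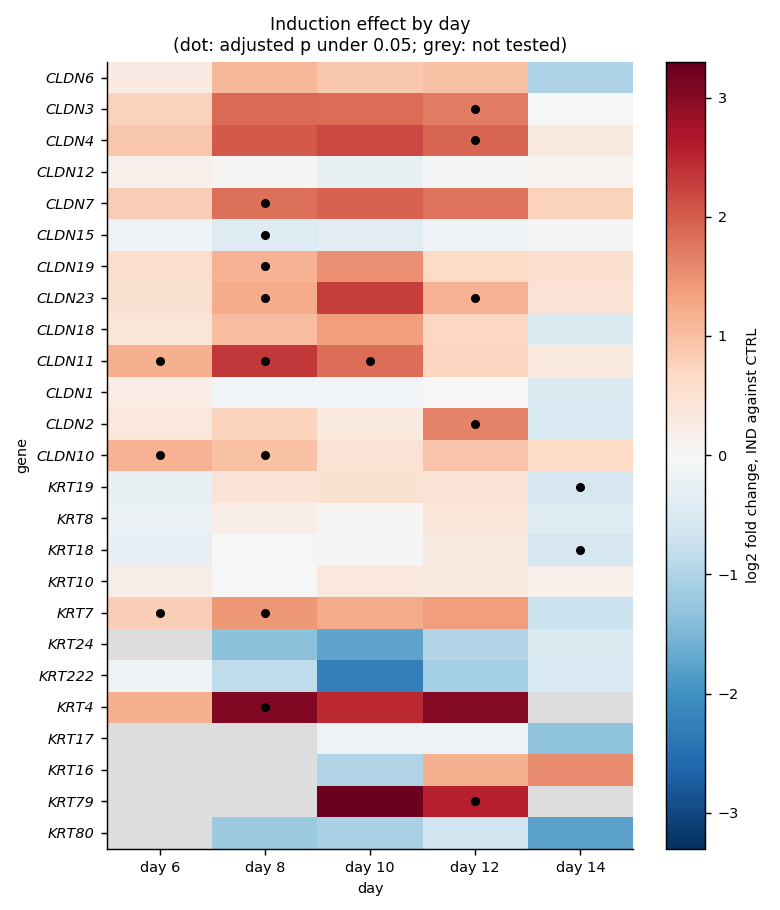
Log2 fold changes of IND against CTRL (colour scale) for the 25 named claudins and keratins in rows and the 5 days in columns, with a dot where the adjusted p was under 0.05 and grey where the gene was not tested. CLDN3, CLDN4 and CLDN7 were at 1.73 or more from day 8 to day 12 with 1 dot each, and the 3 abundant keratins KRT8, KRT18 and KRT19 were between -0.55 and 0.50 throughout.

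CLDN3, CLDN4 and CLDN7, sealing claudins found together in many simple epithelia, were higher in every IND library than in every CTRL library at days 8, 10 and 12, although few of these differences were called. CLDN3 was 35.7, 33.2 and 14.9 in day 8 IND against 5.09, 13.1 and 4.91 in CTRL, and 37.3, 34.8 and 21.8 in day 12 IND against 3.66, 12.9 and 11.9 in CTRL. CLDN4 was 25.1, 28.4 and 17.5 in day 12 IND against 2.51, 8.79 and 7.65 in CTRL. CLDN7 was 9.96, 8.28 and 4.78 in day 8 IND against 1.72, 3.24 and 1.62 in CTRL. For all 3 genes the groups did not overlap on these days, but the wells of one group differed up to 4.62-fold (the highest over the lowest library, CLDN4 in day 6 IND).

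The fold changes were 4.08-fold for CLDN4, 3.65-fold for CLDN3 and 3.53-fold for CLDN7 at day 8, and of these CLDN7 was called (log2 fold change 1.82 ± 0.38, adjusted p = 0.0269). At day 12 CLDN4 was called (1.91 ± 0.41, adjusted p = 0.0311), CLDN3 was just under the threshold (1.73 ± 0.42, adjusted p = 0.0498) and CLDN7 just over it (1.78 ± 0.44, adjusted p = 0.0535). At day 10 none of the 3 was called, with 1.83 ± 0.47, 2.18 ± 0.62 and 1.95 ± 0.50 for CLDN3, CLDN4 and CLDN7, and 1.82, 1.73 and 1.77 (adjusted p 0.196 to 0.283) without IND replicate 2. At day 14 the values were 0.01, 0.31 and 0.75, and the groups overlapped. The day 12 call of CLDN4 was lost without IND replicate 1 or 2 or CTRL replicate 2 or 3 (adjusted p 0.0514 to 0.222), that of CLDN3 without any library but CTRL replicate 1 (0.0529 to 0.274), and the day 8 call of CLDN7 without IND replicate 1 or 2 or CTRL replicate 1 or 3 (0.0555 to 0.0964). Without the filter on low counts, the day 12 adjusted p was 0.28 for CLDN3 and 0.228 for CLDN4. In 1 fit over all 33 libraries it was 0.0539 and 0.0558, whereas that of CLDN7 was 0.0394. At day 8, CLDN3 and CLDN4 were called with DESeq2 (adjusted p 0.0188 and 0.00767) or without CTRL replicate 2 (0.0227 and 0.0309), and at day 10 all 3 genes were called with DESeq2 (0.00167 to 0.00246) or in 1 fit over all 33 libraries (0.0157 to 0.0253). CLDN7 at day 12 was called without IND replicate 3 (0.0489), and at day 6, CLDN3 (0.0141) and CLDN7 (0.0277) were called without IND replicate 1. None of the 3 was called in the interaction, and all 3 were without the filter on low counts (1.92e-19 to 0.000568).

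The genes of CLDN3 and CLDN4 are neighbours on chromosome 7, on opposite strands with 29271 bases between them, and CLDN7 lies on chromosome 17, with 10.8% of its exon length shared with another gene on the same strand. In the order of levels at day 12 IND, CLDN6 (73.9 ± 31.7) was followed by CLDN3 (31.3 ± 8.33), CLDN4 (23.7 ± 5.60) and CLDN7 (9.31 ± 3.87), and CLDN3 and CLDN4 overlapped. In counts not scaled to gene length, CLDN4 (5282, 6175 and 2435) was above CLDN3 (2124, 2052 and 822) in these libraries. The promoters of CLDN3, CLDN4 and CLDN7 are shown because the IND libraries of these members lay above CTRL on the same 3 days. The same held for CLDN11, CLDN23 and KRT79. On each of these days, 30.3% to 33.1% of all genes tested did not overlap, in either direction. They are the 250 bases before the RefSeq start, at chr7:73770271-73770520 (minus strand), chr7:73830746-73830995 (plus strand) and chr17:7263214-7263463 (minus strand) of GRCh38.p14. For CLDN4 and CLDN7, both the start and these bases lie inside the span that the count table gives the gene. None of the 4 motifs searched was found in these bases, hence no capitals, whereas the 300-base window of CLDN3 held CAGGTG at position 37 after the start. Their GC content was 71.6%, 58.8% and 60.4%, beside a median of 58.3% over all 300-base windows.
CLDN3: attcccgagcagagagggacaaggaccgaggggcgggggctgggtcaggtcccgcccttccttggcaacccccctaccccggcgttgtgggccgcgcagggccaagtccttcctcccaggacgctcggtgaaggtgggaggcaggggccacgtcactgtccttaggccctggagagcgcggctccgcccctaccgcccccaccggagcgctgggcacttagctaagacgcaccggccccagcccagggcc
CLDN4: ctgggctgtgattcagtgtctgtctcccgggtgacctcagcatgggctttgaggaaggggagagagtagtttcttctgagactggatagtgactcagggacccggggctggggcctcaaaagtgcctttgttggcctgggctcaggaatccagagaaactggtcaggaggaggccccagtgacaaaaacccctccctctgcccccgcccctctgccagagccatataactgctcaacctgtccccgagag
CLDN7: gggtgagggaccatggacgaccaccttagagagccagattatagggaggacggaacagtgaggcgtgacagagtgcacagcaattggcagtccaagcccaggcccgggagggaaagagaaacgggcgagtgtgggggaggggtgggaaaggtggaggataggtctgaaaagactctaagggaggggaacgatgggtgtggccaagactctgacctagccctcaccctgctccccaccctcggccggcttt

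CLDN6 was not called in any IND comparison, and at day 12 it was called with DESeq2 (adjusted p = 0.019) and with the replicate block (0.0382). It was 115, 92.6 and 38.7 in day 8 IND against 27.9, 53.0 and 34.6 in CTRL, and 10.5, 21.8 and 9.96 in day 14 IND against 27.5, 25.3 and 33.7 in CTRL. The libraries overlapped at day 8 (log2 fold change 1.11 ± 0.50, adjusted p = 0.244), and at day 14 every IND library was below every CTRL library (-1.03 ± 0.34, adjusted p = 0.156). Without day 14 IND replicate 2 the day 14 value was -1.49 (adjusted p = 7.29e-05). The summed claudin level was 102.3 ± 11.8 at day 4 and lay between 59.8 ± 5.06 and 77.6 ± 24.2 in CTRL from day 6 on. In IND it was 95.8 ± 33.9, 159.4 ± 60.1, 146 ± 49.7, 163.4 ± 47.1 and 47.3 ± 16.8 from day 6 to day 14. Without replicate 2, the day 10 IND libraries were at 95.9 and 145.5. The libraries of IND and CTRL did not overlap at days 10 and 12 and overlapped at days 6, 8 and 14. CLDN6 held 64.4 ± 2.87% of the sum at day 4, 48.0 ± 3.32% in day 14 CTRL and 29 ± 3.31% in day 14 IND.

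**Figure D2:**
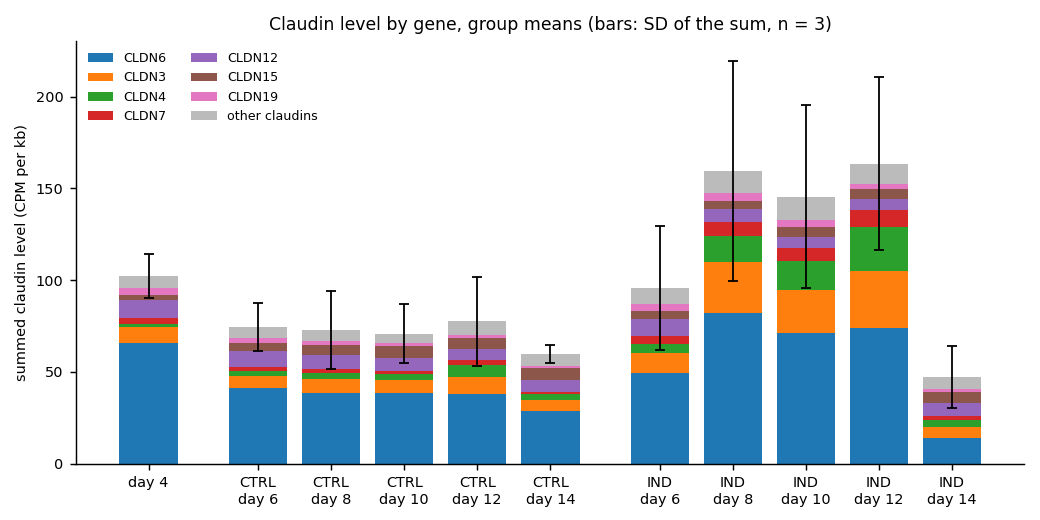
Summed claudin level (CPM per kb, bar axis from 0) in the 11 groups, stacked by gene from group means, with error bars of 1 SD of the sum over 3 libraries. IND bars at days 8, 10 and 12 reached 159.4, 146 and 163.4 against at most 77.6 in CTRL, with CLDN3, CLDN4 and CLDN6 making most of the difference.

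Several members and EPCAM were often highest in the same well of a group. In 11 of 11 groups the library with the highest CLDN4 level also had the highest level of EPCAM, an epithelial adhesion protein, and the same held in 10 of 11 groups for CLDN6 and CLDN7, in 9 for CLDN3 and KRT4, and in 8 for KRT79. Over all genes tested in the interaction the median was 3 of 11 groups and the 95th percentile 7. For KRT8 it was 5, for CLDN12 3, and for CLDN15 and KRT10 2. These genes were picked after their values were seen, and the libraries of a group share only their day and treatment.

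The summed level of 5 definitive endoderm and gut markers (SOX17, FOXA2, CDX2, AFP and APOA1) was also higher in every IND library than in every CTRL library at days 8, 10 and 12. All 5 were over 3 counts in every library after day 4. The sum lay between 96.6 and 185.1 in day 8 IND against 36.7 to 81.9 in CTRL, between 88.4 and 176.5 (at most 127.5 without IND replicate 2) against 27.1 to 58.5 at day 10, and between 82.8 and 126.2 against 19.8 to 48.9 at day 12. The groups overlapped at day 6 (45.3 to 123 against 54.4 to 90.6) and at day 14 (20.7 to 49.9 against 23.4 to 28.7). The sum of CLDN3, CLDN4 and CLDN7 was 26.5 to 63.7 in day 8 IND against 8.88 to 22.1 in CTRL and 45.1 to 76.7 in day 12 IND against 7.30 to 25.5. In the fit, FOXA2 (2.06 ± 0.43, adjusted p = 0.0279), CDX2 (1.39 ± 0.32, adjusted p = 0.0396) and AFP (2.61 ± 0.47, adjusted p = 0.0161) were called higher in IND at day 12, and SOX17 (0.99 ± 0.38, adjusted p = 0.189) and APOA1 (1.26 ± 0.35, adjusted p = 0.0759) were not. AFP was also called higher at day 14 (1.15 ± 0.21, adjusted p = 0.0036). None of the 5 was called at day 8 (adjusted p 0.0882 to 0.149) or at day 10 (0.0623 to 0.152). Other marker lists moved as well. The summed level of 8 endothelial markers was 21.6 to 24.7 in day 8 IND against 9.58 to 14.3 in CTRL and 11.1 to 14.7 in day 12 IND against 5.89 to 6.16, and it was above CTRL in every IND library at days 10 and 14 too. That of 8 coelomic epithelium and mesothelium markers was 63.6 to 91.3 in day 8 IND against 163.3 to 206.7 in CTRL and 130.5 to 158.9 in day 12 IND against 236 to 299.8. The part of any of these cells in the claudin differences was not tested.

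**Figure D3:**
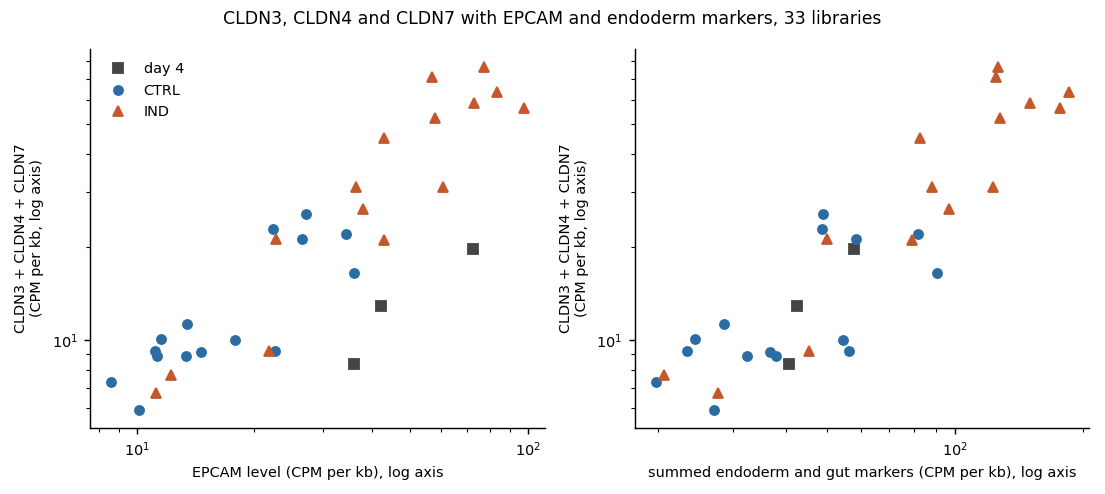
Summed level of CLDN3, CLDN4 and CLDN7 in each of the 33 libraries (CPM per kb, log axis) against the EPCAM level (left) and the summed level of 5 definitive endoderm and gut markers (right), both on log axes, with squares for day 4, circles for CTRL and triangles for IND. The IND libraries of days 8, 10 and 12 had claudin sums of 26.5 to 76.7 with EPCAM levels of 36.4 to 97.7, and the CTRL libraries of those days 5.90 to 25.5 with 8.59 to 34.3. The day 4 libraries had EPCAM levels of 35.9 to 72.3 and a claudin sum of 8.37 to 19.7.

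KRT7 was the keratin called on the most IND days (6 and 8). It was 2.73, 2.94 and 3.52 in day 6 IND against 2.08, 1.64 and 1.60 in CTRL, and 4.14, 2.92 and 2.13 in day 8 IND against 1.05, 1.35 and 1.05 in CTRL. All IND libraries were above all CTRL libraries on both days, and below all day 4 libraries. The log2 fold change was 0.81 ± 0.17 at day 6 (adjusted p = 0.0115) and 1.43 ± 0.24 at day 8 (adjusted p = 0.00308). The day 8 call was kept under every alternative, and that at day 6 was lost without IND replicate 2 or 3 or CTRL replicate 3 (adjusted p 0.0502 to 0.0654). At day 10 it was 1.22 ± 0.33 and not called, and 1.09 (adjusted p = 0.0274) without day 10 IND replicate 2. At day 14 it was -0.71 ± 0.38, with levels of 0.238, 0.470 and 0.265 against 0.529, 0.300 and 0.774, which overlap.

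Of the abundant keratins, KRT19 and KRT18 were called lower in IND at day 14. KRT19 was 116, 125 and 129 in day 14 IND against 152, 163 and 228 in CTRL, and KRT18 was 128, 141 and 140 against 175, 180 and 244. In both genes every IND library was below every CTRL library, and so was every library of KRT8 (197 to 220 against 244 to 357), which was not called (adjusted p = 0.0367 without CTRL replicate 2, 0.0194 with DESeq2 and 0.000216 without the filter on low counts). The log2 fold changes were -0.55 ± 0.14 for KRT19 (adjusted p = 0.0359), -0.55 ± 0.12 for KRT18 (adjusted p = 0.0149) and -0.43 ± 0.14 for KRT8 (adjusted p = 0.0857). The call of KRT19 was lost without any one IND library (adjusted p 0.103 to 0.122) and that of KRT18 without IND replicate 1 or 3 (0.0732 and 0.0767). At day 10, KRT19 was 569 in IND replicate 2 against 221 and 260 in the other IND libraries and 226 to 288 in CTRL, and its log2 fold change of 0.50 ± 0.36 became -0.05 without that library. KRT19 at day 8 was called higher with DESeq2 (0.43, adjusted p = 0.0276). With edgeR it was called higher at day 8 (0.604, adjusted p = 0.0147) and day 12 (0.643, adjusted p = 0.0496) only without IND replicate 3 of that day. The summed keratin level was 486.4 ± 26.3 in day 14 IND and 680.6 ± 143 in day 14 CTRL. In IND against CTRL it was 966.8 ± 120 against 1142 ± 60.9 at day 6, 930.8 ± 161 against 792.7 ± 125 at day 8, 952.6 ± 239 (755.3 and 883.4 without replicate 2) against 847.3 ± 90.3 at day 10 and 1024 ± 262 against 789.9 ± 115 at day 12.

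Among claudins of lower level, CLDN19 and CLDN23 were called higher in IND at day 8. CLDN19, a claudin of kidney tubule and myelinating cells, was 5.30, 4.10 and 3.37 in day 8 IND against 1.84, 1.98 and 1.96 in CTRL. CLDN23 was 3.90, 3.84 and 2.62 against 1.29, 1.66 and 1.48 at day 8, and 1.75, 2.02 and 1.63 against 0.668, 0.985 and 0.812 at day 12. None of these ranges overlapped. The log2 fold changes at day 8 were 1.15 ± 0.17 for CLDN19 (adjusted p = 0.00103) and 1.24 ± 0.20 for CLDN23 (adjusted p = 0.00215), and that of CLDN23 at day 12 was 1.14 ± 0.23 (adjusted p = 0.0239).

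At day 10, CLDN23 was 7.49 in IND replicate 2 against 1.99 and 2.36 in the others, with a log2 fold change of 2.29 ± 0.55 (adjusted p = 0.109) that became 1.43 (adjusted p = 0.000160) without it. CLDN19 at day 10 went from 1.51 ± 0.34 (adjusted p = 0.0924) to 1.14 (adjusted p = 0.00175) in the same way. The day 12 call of CLDN23 was lost without IND replicate 2 or any one CTRL library (adjusted p 0.0565 to 0.108). The day 4 levels, 3.08 to 5.31 for CLDN19 and 1.58 to 3.06 for CLDN23, overlapped those of day 8 IND in both genes.

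CLDN10, CLDN2 and CLDN15, which form ion pores, did not move as one. CLDN10 lay between 0.872 and 1.13 in day 6 IND against 0.348 to 0.512 in CTRL (log2 fold change 1.15 ± 0.26, adjusted p = 0.0176), and was called again at day 8 (0.96 ± 0.28, adjusted p = 0.0415). CLDN2 was 0.198 to 0.323 in day 12 IND against 0.0756 to 0.0883 in CTRL (1.64 ± 0.37, adjusted p = 0.0369). CLDN15 was the only claudin called lower in the 5 IND comparisons, at 3.85, 3.96 and 4.98 in day 8 IND against 5.36, 5.82 and 6.25 in CTRL (-0.43 ± 0.13, adjusted p = 0.0443). None of these groups overlapped. The exon length of CLDN10 is shared to 46.1% with DZIP1 on the other strand and that of CLDN2 to 10.0% with RIPPLY1, so their counts are uncertain.

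Each of these calls was sensitive to single libraries. The day 6 call of CLDN10 was lost without IND replicate 2 or 3 or CTRL replicate 1 or 3 (adjusted p 0.0575 to 0.0969), and its day 8 call without any library but CTRL replicate 1 (0.0701 to 0.165). The call of CLDN15 was lost without any library but IND replicate 3 (0.0809 to 0.184), and that of CLDN2 without any library but IND replicate 1 (0.0525 to 0.152).

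The rare type II keratins KRT4 and KRT79, of mucosal and sebaceous epithelium, had the largest ratios of IND to CTRL among the keratins called, at very low levels. KRT4 was 0.752, 0.535 and 0.234 in day 8 IND against 0.0536, 0.124 and 0 in CTRL (log2 fold change 3.06 ± 0.79, adjusted p = 0.0376), a call lost without IND replicate 1 or 2 or CTRL replicate 1 (adjusted p 0.0934 to 0.156). KRT79 was 0.106, 0.187 and 0.159 in day 12 IND against 0.0296, 0.0346 and 0.00845 in CTRL (2.57 ± 0.61, adjusted p = 0.0453), a call lost without any library but IND replicate 1 (0.102 to 0.183). The groups did not overlap in either case, and both genes passed the filter on low counts only through IND, which fixed the direction. KRT24 pointed the other way, at 1.07, 1.26 and 0.576 in day 10 IND against 3.25, 2.83 and 3.61 in CTRL, without overlap and not called (-1.74 ± 0.34, adjusted p = 0.0647), and -1.97 ± 0.25 (adjusted p = 0.00012) without IND replicate 2. CLDN1, which rose most among claudins in DIFF, was at 1.71 ± 0.349 in day 12 IND and 1.72 ± 0.265 in CTRL.

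The genes that work beside the members were examined as lists. Of all genes tested, edgeR called 3.66%, 14.2%, 2.03%, 5.42% and 8.43% in IND from day 6 to day 14. At day 10 without IND replicate 2 it called 18.2%. These shares stand beside the counts of every list below, and no such share is given for DESeq2 or for unadjusted p-values. Of 18 tight junction partners, all tested on every day, 4 were called higher and 2 lower in IND at day 8, 1 higher at day 10, 2 higher at day 12 and 1 in each direction at day 14. At day 6 edgeR and DESeq2 called 0, with 0 at an unadjusted p under 0.05. DESeq2 called 10 higher and 2 lower at day 8 and 8 higher and 1 lower at day 10, 4 higher at day 12 and 3 higher and 1 lower at day 14. Without day 10 IND replicate 2, edgeR called 4 higher and 2 lower at day 10. The 3 most abundant were JAM3, PARD3 and TJP1 (the scaffold protein ZO-1), and none of them was called in IND. The median log2 fold change of the list was 0.23, 0.785, 1.22, 0.37 and 0.22 from day 6 to day 14. At day 10 it was 0.415 without IND replicate 2. In DIFF at day 14, 4 of the 18 were called higher and 7 lower, beside 24.6% and 22.9% of all genes.

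Of 21 desmosome and hemidesmosome genes, which anchor keratins at the membrane, 17 to 19 were tested in IND. Of these, 1 was called higher at day 6, 4 at day 8 and 5 at day 14, where 1 was called lower. At days 10 and 12 edgeR and DESeq2 called 0, with 1 and 4 at an unadjusted p under 0.05, and without day 10 IND replicate 2 edgeR called 5 higher at day 10. DESeq2 called 8 higher and 2 lower at day 14. DSG2, DSP and JUP (desmoglein 2, desmoplakin and plakoglobin) were the most abundant. At day 14, the day on which KRT18 and KRT19 were called lower, DSG2 (0.98 ± 0.13, adjusted p = 0.000498) and DSP (0.60 ± 0.11, adjusted p = 0.00447) were called higher. In DIFF at day 8, 11 of 19 were called higher and 3 lower, beside 18.1% and 18.9% of all genes.

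Of 11 other cytoplasmic intermediate filament genes, 3 to 6 were called lower and at most 1 higher in IND on each day. VIM, the mesenchymal filament, was called lower at day 6 (-0.58 ± 0.10, adjusted p = 0.00167), NES (nestin) at days 6 and 14, and DES (desmin) from day 8 to day 14, with -2.28 ± 0.13 (adjusted p = 0.00178) at day 10 and -2.26 ± 0.10 (adjusted p = 3.07e-08) without IND replicate 2. Without that library, 6 of the list were called lower and 1 higher at day 10. Among the others called lower were the neurofilament genes NEFL and NEFM, from day 8 to day 14, named after their values were seen. The summed level of 8 neural markers was 121 to 207 in day 14 CTRL and 41.3 to 57.3 in day 14 IND, with all 8 over 3 counts in both groups, and its part in these differences was not tested. In DIFF at day 14, 8 of 10 were called higher and 1, VIM, lower (-1.06 ± 0.13), beside 24.6% and 22.9% of all genes.

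Of 17 regulators of the epithelial state, 2 were called lower at day 6, 2 higher and 2 lower at day 8, 4 higher and 1 lower at day 12 and 1 lower at day 14. At day 10 edgeR called 0, with 10 at an unadjusted p under 0.05, and without IND replicate 2 it called 3 higher and 1 lower. DESeq2 called 8 higher and 4 lower at day 8, 8 higher and 1 lower at day 10 and 7 higher and 1 lower at day 12. The 3 most abundant were TWIST1, EPCAM and SNAI1. SNAI1, a repressor of epithelial genes, was called lower in IND at day 6 (-1.49 ± 0.15, adjusted p = 2.20e-05), day 8 (-1.38 ± 0.23, adjusted p = 0.00735), day 12 and day 14. TWIST1 was called lower at day 6 (-1.08 ± 0.21, adjusted p = 0.0368), and EPCAM was called higher at day 12 (1.61 ± 0.385, adjusted p = 0.0481), when CLDN3 and CLDN4 were. The other genes called higher at day 12 were CDH1, OVOL2 and ELF3, named after their values were seen.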

How the data were processed

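Poly-A RNA of 33 libraries was sequenced without strand information. Per the labels, the authors trimmed reads with fastp 0.23.2, mapped them to GRCh38 with HISAT2 2.0.5 and counted them per gene with featureCounts 1.5.0-p3, and the deposited counts are raw whole numbers. The deposited FPKM values were scaled by the authors to gene length and library size, and served as an alternative. Gene lengths came from the deposited count table.

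Genes with low counts were removed (filterByExpr), library sizes were scaled by TMM, and 6 libraries of 2 groups at a time were tested with the quasi-likelihood test of edgeR 4.0.16 in R 4.3.3, adjusted by Benjamini-Hochberg over all genes tested. The interaction was fitted over 30 libraries. DESeq2 1.42.0, limma 3.58.1 on log2(FPKM + 1) and log2(FPKM + 0.1), RLE scaling, no filter, 1 fit over 33 libraries, a replicate block and leaving out single libraries were alternatives. The scripts were tested on simulated data. Depth ran from 23940837 to 51912815 counts, so a floor of 3 counts was 0.0565 to 0.130 CPM, which covers counting error only.

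The members and lists were chosen with earlier results of these data known. Named were the 12 claudins and 12 keratins with the highest group mean and every member called in IND, and the rule set values in each library for at most 10 of the latter (those of some further members are given too). Promoter windows came from RefSeq (GRCh38.p14). One gene of the endoderm and gut marker list is not reported here and was left out of its sum.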

Additional observations from a re-analysis of the deposited data

Results flagged for a closer look

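The effect of induction on CLDN11 varied over the days from 6 to 14 by the interaction test, which took all these days together (adjusted p = 0.00108, edgeR). Its log2 fold changes ranged from 2.35 at day 8 to 0.33 at day 14, and no single pair of days was tested. The interaction was over the threshold without replicate 1 (adjusted p = 0.0569) or replicate 3 (0.111) of every group, and under it without replicate 2 of every group (0.0266), without day 10 IND replicate 2 (0.000108) or without day 12 IND replicate 1 (0.00166, a choice made after seeing the data).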

How the results depend on the processing

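The directions of all 19 named IND calls and all 73 named DIFF calls were the same under every alternative. Numbers of called members that moved by over 1.5 times were, without the filter on low counts, 5 at day 6, 3 at day 10 and 7 at day 14 in IND, 10 at day 6 in DIFF and 14 in the interaction. With DESeq2 they were 9 at day 10, 9 at day 12 and 4 in the interaction. With 1 fit over 33 libraries they were 1 at day 6, 10 at day 10 and 0 at day 14, with limma on log2(FPKM + 1) 2 at day 10, 2 at day 12 and 0 at day 14, and with log2(FPKM + 0.1) 1 at day 6 and 0 at day 14. On day 14, 2 were called by the edgeR test of 6 libraries and 3 by DESeq2. The cause was not tested.

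Leaving out single libraries gave 1 to 6, 4 to 11, 0 to 10, 0 to 5 and 0 to 3 calls in IND from day 6 to day 14, 4 to 9, 10 to 17, 14 to 19, 13 to 18 and 16 to 24 in DIFF, and 0 to 1 in the interaction (without a replicate number in every group). The share of all genes called moved too, at day 10 from 2.03% to 18.2% without IND replicate 2. For the other alternatives in this section that share is not given, so their counts do not set the members apart from all genes.

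With the replicate block, 3, 11, 0, 6 and 2 members were called in IND and 9, 16, 16, 17 and 20 in DIFF. Same-numbered libraries deviated together at over 0.1 in 3 of 15 pairs in IND and 4 of 15 in DIFF (correlations -0.229 to 0.175 and -0.205 to 0.32). The labels do not say what the number stands for. With 3 libraries a group, these correlations cannot decide whether same-numbered libraries were paired.

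Log2 fold changes that reversed belonged to IND comparisons that were not called. KRT18 at day 8 was -0.00187 with RLE, -0.00282 with DESeq2, -0.00958 without the filter and -0.0099 with 1 fit. CLDN2 at day 10 was -0.0382 with log2(FPKM + 0.1) and -0.206 with the replicate block, and KRT8 at day 10 was -0.000391 without the filter. CLDN3 at day 14 was -0.143 and -0.193 with limma (FPKM + 1 and + 0.1) and -0.17 with the block. Without single libraries the ranges were -0.0842 to 0.551 for CLDN6 at day 6, -0.124 to 0.0875 for KRT18 at day 8, and at day 10 -0.0533 to 0.725 for KRT19, -0.162 to 0.0565 for KRT18, -0.0879 to 0.869 for CLDN2 and -0.0399 to 0.0997 for KRT8. At day 14 they were -0.725 to 0.286 for CLDN3, -0.344 to 0.568 for CLDN4, -0.0486 to 1.07 for CLDN7 and -0.268 to 0.0832 for CLDN15.

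The limits are 1 clone, 1 experiment and 3 technical replicates a group, bulk RNA without strand, and wells of a group that differ in epithelial genes. A member at or under 3 counts was not detectable at this depth.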
